A study of Mus musculus with 18 samples.

Results

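The genes described here are those of the mitochondrial ribosomal proteins, measured by RNA sequencing in mouse acute myeloid leukemia (AML) cells after the RNA polymerase I inhibitor CX-5461 or vehicle. They were chosen by name: every gene whose symbol, paired with its Ensembl ID, begins with Mrpl or Mrps and a number, with pseudogene names left out. Of 78 such genes in the name table, 76 were measured in each of the 3 deposited tables, which hold 12679, 12861 and 12838 genes, and the same 76 were measured in all 3. Mrpl33 and Mrpl53 were in none of the tables and are not analysed here. By the position of the protein, 26 of the 76 genes encode small subunit proteins and 49 large subunit proteins. The latter include Mrps18a and Mrps30, whose proteins sit in the large subunit despite their names. The remaining gene, Mrps36, is now known to encode a component of the 2-oxoglutarate dehydrogenase complex. A bacterial counterpart defines the position of the proteins of 44 genes, and 32 have a mitochondrial name only.

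The leukemias carried MLL/ENL and Nras and were either p53 wild type (p53WT) or without p53 (p53null). They had been transplanted into syngeneic C57BL/6 mice, which were treated once the disease was established, and sequencing used the GFP-positive cells obtained by flow sorting of the marrow. There were 18 samples in 6 groups of 3: CX-5461 and vehicle for 10 h in p53WT AML, for 10 h in p53null AML and for 72 h in p53WT AML. No p53null samples at 72 h were analysed here. At 10 h the sample titles of the p53WT and p53null groups carry different tags, which the labels do not explain. Genotype and a difference between leukemias therefore cannot be told apart. The labels name neither the animals nor the number of primary leukemias behind the groups, and they do not describe the Trp53 allele of the p53null cells. The p-values below therefore measure only the spread between these samples, which may be technical. In sorted bulk cells, fewer cells of a type and less RNA per cell cannot be told apart.

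Mitochondria translate the few proteins of their own DNA, all of them subunits of the respiratory chain and ATP synthase, on a ribosome separate from that of the cytosol. Its ribosomal RNAs come from mitochondrial DNA, whereas every one of its proteins is encoded in the nucleus, made in the cytosol and imported. CX-5461 acts on the nuclear polymerase that makes the ribosomal RNA of the cytosolic ribosome, and that polymerase does not transcribe mitochondrial ribosomal RNA. In AML, blocking mitochondrial translation with the antibiotic tigecycline has been studied as a way to kill leukemic cells.

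Promoter sequences of the RefSeq table (GRCm38.p6) were matched to 67 of the 76 genes, and 5 letter strings were searched on both strands from 250 bases before to 50 bases after each start. The strings were CCGGAAG (bound by ETS factors such as GABPA, a regulator of nuclear genes for mitochondrial proteins), GGGCGG (Sp1), CACGTG (the E-box of MYC and USF) and longer strings for the core of NRF1 and for YY1. CCGGAAG was in 24 of the 67 (35.8%), against 9.93% of all genes of the RefSeq table and 21.5% of the genes measured at 10 h in p53WT AML. The YY1 string was in 5 (7.46%, against 0.755% and 1.95%) and that of NRF1 in 3 (4.48%, against 1.07% and 2.53%). GGGCGG was in 34 (50.7%, against 38.2% and 68.3%) and CACGTG in 5 (7.46%, against 8.09% and 11.9%). No such string was found in 17 of the 67, which says nothing of the factors named. The 250 bases upstream of the start are printed below for 5 genes, with matches in capitals. Mrps2 is shown because it passed the test at 10 h, Mrps6 because its fold change at 10 h was the largest, and Mrpl3 because it holds the ETS string and serves as an example of it. Mrpl20 and Mrpl36 are shown because they moved in opposite directions at 72 h although both hold an E-box, at 33 and 43 bases before the start. The windows are chr2:28467816-28468065 (plus strand) for Mrps2, chr16:92058086-92058335 (plus) for Mrps6, chr9:105053018-105053267 (plus) for Mrpl3, chr4:155802628-155802877 (plus) for Mrpl20 and chr13:73330759-73331008 (plus) for Mrpl36.
Mrps2: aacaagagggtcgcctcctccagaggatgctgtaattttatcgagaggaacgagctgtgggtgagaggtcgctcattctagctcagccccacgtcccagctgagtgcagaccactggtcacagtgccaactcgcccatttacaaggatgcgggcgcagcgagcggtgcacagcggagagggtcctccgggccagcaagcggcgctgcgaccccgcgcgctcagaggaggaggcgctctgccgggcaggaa
Mrps6: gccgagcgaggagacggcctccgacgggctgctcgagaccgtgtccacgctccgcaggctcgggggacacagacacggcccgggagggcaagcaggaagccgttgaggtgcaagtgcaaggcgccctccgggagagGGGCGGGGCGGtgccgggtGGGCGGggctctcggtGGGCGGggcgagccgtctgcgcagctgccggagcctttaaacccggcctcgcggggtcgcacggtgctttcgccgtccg
Mrpl3: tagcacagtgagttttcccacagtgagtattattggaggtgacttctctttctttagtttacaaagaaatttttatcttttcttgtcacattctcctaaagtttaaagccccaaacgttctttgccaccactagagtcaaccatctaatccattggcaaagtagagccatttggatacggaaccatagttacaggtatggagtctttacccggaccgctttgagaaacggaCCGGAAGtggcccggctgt
Mrpl20: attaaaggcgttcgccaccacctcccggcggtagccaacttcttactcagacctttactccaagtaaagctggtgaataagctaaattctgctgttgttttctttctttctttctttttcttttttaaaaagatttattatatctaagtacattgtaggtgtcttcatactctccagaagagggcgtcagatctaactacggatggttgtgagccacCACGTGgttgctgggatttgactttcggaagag
Mrpl36: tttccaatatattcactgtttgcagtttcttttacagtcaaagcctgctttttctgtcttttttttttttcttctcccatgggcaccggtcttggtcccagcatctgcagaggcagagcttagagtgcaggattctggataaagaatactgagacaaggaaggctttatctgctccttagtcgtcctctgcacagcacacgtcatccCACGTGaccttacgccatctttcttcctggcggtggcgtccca

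Counts per library were at hand for p53WT AML at 10 h, with totals of 21578685 to 48118513 counts, and levels are given as CPM (counts scaled to the library total) after TMM scaling. Trp53, the gene that separates the genotypes, had 168, 142 and 160 CPM in the vehicle group, and 183, 182 and 180 CPM after treatment. The authors' deposited table for p53null AML listed Trp53 at a mean of 61.5 CPM. Cdkn1a, a p53 target that checks the treatment, went from 51.2, 55.3 and 48.7 CPM to 232, 262 and 247 CPM (log2 fold change 2.25, adjusted p = 8.19e-05 by edgeR's quasi-likelihood F test (Benjamini-Hochberg)). All 10 markers of the leukemia cells fixed for this check, Mpo, Elane and Kit among them, were measured, at a summed 13222 to 17052 CPM in vehicle and 17367 to 17435 CPM with CX-5461. By the same edgeR test 0 of the 10 were higher and 1 was lower, beside 3.78% and 4.32% of all genes. Their log2 fold changes ran from -0.41 to 0.41, with 8 above 0 and 2 below. Markers of other marrow cells were present as well. The 19 measured erythroid markers summed to 806 to 20344 CPM in the vehicle libraries and to 474 to 687 CPM with CX-5461. The 17 neutrophil markers summed to 12281 to 24787 CPM and to 5806 to 7077 CPM. Of 12 lymphoid markers, 7 were not among the genes of the table, Ms4a1 and Cd3e included. The 5 measured ones summed to 211 to 425 CPM in vehicle and to 181 to 193 CPM with CX-5461. Of these 5, 1 was higher and 1 lower by the edgeR test, and 4 had log2 fold changes below 0.

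The comparison with counts was that of CX-5461 and vehicle for 10 h in p53WT AML. Most genes of the mitochondrial ribosome kept close to their vehicle level. Mrpl19 (large subunit) and Mrps2 (small subunit) rose by 0.26 and 0.25 on the log2 scale, and no member fell. These 2 of 76 stand beside 8.1% of all 12679 genes that passed the same test, 3.78% upward and 4.32% downward. The other 74 did not pass. With no adjustment of p, 18 of 76 were higher and 0 lower, against 14.7% and 16.7% of all genes. The median log2 fold change was 0.06 over the 76 and 0.00 over all genes, 51 of the 76 values were above 0, and the values ran from -0.13 (Mrpl14) to 0.50 (Mrps6). The estimates were tight, with standard errors of 0.0437 to 0.137 and a median of 0.0654, where the median over all genes was 0.0898. Within 1.1-fold of vehicle lay 58 of the 76 genes (76.3%), and 47.5% of all genes. Within 1.2-fold lay 71 (93.4%), and 72.3% of all genes. The number that rose depended on single libraries and on the tool. It was 6 without vehicle library 1, 1 without vehicle library 3 and 0 without any 1 of the CX-5461 libraries. It was 1 with limma-voom and 8 with DESeq2, while 0 fell in each of these fits. Over all 12679 genes, these fits called 817, 474, 23 to 24, 394 and 962 higher, against 479 in the main fit. The median was 0.03 without vehicle library 3, 0.03 without CX-5461 library 3 and 0.10 with scaling by library size alone, which moved the median of all genes to 0.04.

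**Figure D1:**
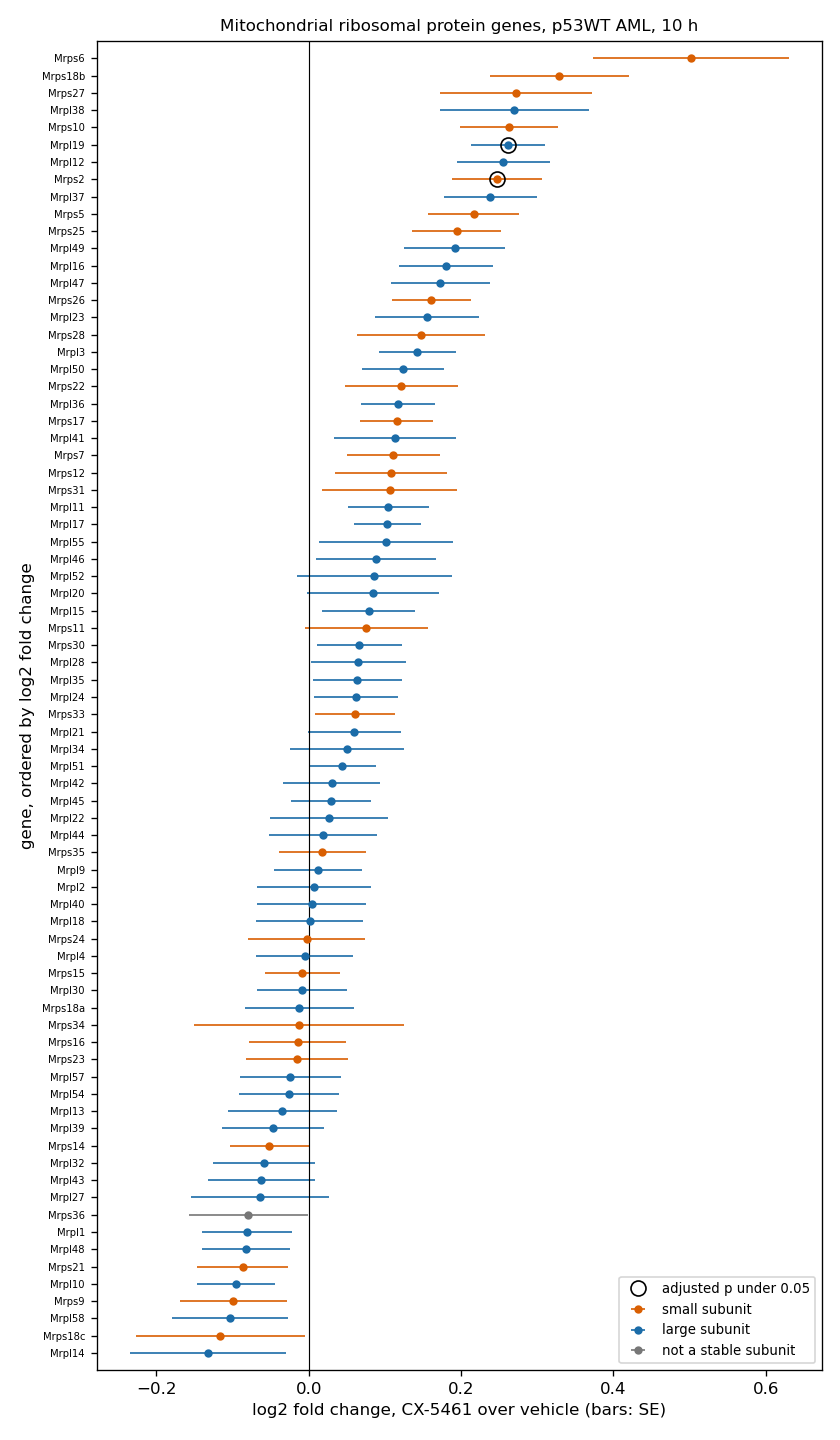
Log2 fold change of each of the 76 genes (x axis, CX-5461 over vehicle, p53WT AML at 10 h) with its standard error as a bar, ordered by size on the y axis and coloured by ribosomal subunit. The 2 circled genes, Mrpl19 and Mrps2, passed edgeR's quasi-likelihood F test (Benjamini-Hochberg), and most of the others sit within their error of 0 or a little above it.

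Mrpl19 (ENSMUSG00000030045) encodes bL19m, a large subunit protein that lies near the interface with the small subunit. It was at 71.9, 70.8 and 72.1 CPM in vehicle and at 87.2, 88.4 and 81.9 CPM with CX-5461. All CX-5461 libraries lay above all vehicle libraries. Its mean went from 71.6 ± 0.703 to 85.9 ± 3.47 CPM (SD, n = 3). The log2 fold change was 0.26 (SE 0.0487), with an adjusted p of 0.0361 by edgeR's quasi-likelihood F test (Benjamini-Hochberg). The count of Mrpl19 is uncertain. In the GENCODE M21 annotation 39.2% of its exon bases also belong to Gcfc2. The library kit does not mark strand, so reads over these bases cannot be assigned with certainty to either gene. Gcfc2 itself was at 12.1, 11.7 and 12.6 CPM in vehicle and at 14.9, 15.2 and 13.9 CPM with CX-5461 (log2 fold change 0.27, SE 0.0808, adjusted p = 0.0746 by the edgeR test).

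Mrps2 (ENSMUSG00000035772) encodes uS2m of the small subunit and shares no annotated exon with another gene. It was at 44.1, 39.1 and 42.0 CPM in vehicle and at 49.8, 49.9 and 49.0 CPM with CX-5461, again with no overlap of the groups. The mean went from 41.7 ± 2.47 to 49.5 ± 0.525 CPM (SD, n = 3). The log2 fold change was 0.25 (SE 0.0588), with an adjusted p of 0.0498 by edgeR's quasi-likelihood F test (Benjamini-Hochberg). This call sits at the threshold: the adjusted p was 0.0505 with RLE scaling, 0.0542 with the exact test of edgeR and 0.0585 with limma-voom. Without vehicle library 3 it was 0.0672, and without CX-5461 library 1, 2 or 3 it was 0.192, 0.179 and 0.139. For Mrpl19 the adjusted p without these CX-5461 libraries was 0.171, 0.160 and 0.104, in fits that called 24, 23 and 23 of the 12679 genes higher.

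The largest fold change, 1.42, belonged to Mrps6, which encodes bS6m of the small subunit. It was at 7.60, 5.77 and 7.25 CPM in vehicle and at 9.97, 10.1 and 9.19 CPM with CX-5461, so that the groups did not overlap. The log2 fold change of 0.50 (SE 0.128) had an adjusted p of 0.0555 by edgeR's quasi-likelihood F test (Benjamini-Hochberg). The authors' deposited table gave Mrps6 a log2 fold change of 0.50 and an FDR of 0.0241, and it was the only member called there at 10 h, where 10.4% of all genes were called, 3.57% higher and 6.83% lower. Exons of Slc5a3, a myo-inositol transporter gene, and of Gm49711 cover 36.1% of its exon bases. Slc5a3 was at 4.83, 3.02 and 6.89 CPM in vehicle and at 8.62, 5.51 and 7.53 CPM with CX-5461 (log2 fold change 0.57, SE 0.302, adjusted p = 0.245 by the edgeR test).

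Several further members did not pass but had every CX-5461 library above every vehicle library, among them the following. Mrpl12 encodes bL12m, the mobile stalk protein that recruits translation factors, and was at 36.7, 34.5 and 32.8 CPM in vehicle and at 41.05, 42.6 and 40.7 CPM with CX-5461 (log2 fold change 0.26, adjusted p = 0.0508 by the edgeR test). Mrps10 (uS10m) was at 32.8, 29.8 and 30.0 CPM and at 38.1, 37.5 and 35.5 CPM (0.26, adjusted p = 0.0517 by the edgeR test). In both genes the lowest CX-5461 library exceeded the highest vehicle library. The log2 fold changes of Mrpl37, Mrps5 (uS5m) and Mrps18b were 0.24, 0.22 and 0.33, and their adjusted p-values by the edgeR test were 0.0557, 0.0636 and 0.0648. Mrpl38 and Mrps27, a pentatricopeptide repeat protein, both had 0.27, and the edgeR test gave adjusted p-values of 0.114 and 0.119. Annotated exons of Gm16279 cover 59.1% of the exon bases of Mrps18b, those of Gm16755 cover 15.2% of Mrpl12 and those of 6430562O15Rik cover 22.6% of Mrps27, whereas Mrps10, Mrpl37, Mrps5 and Mrpl38 share none.

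**Figure D2:**
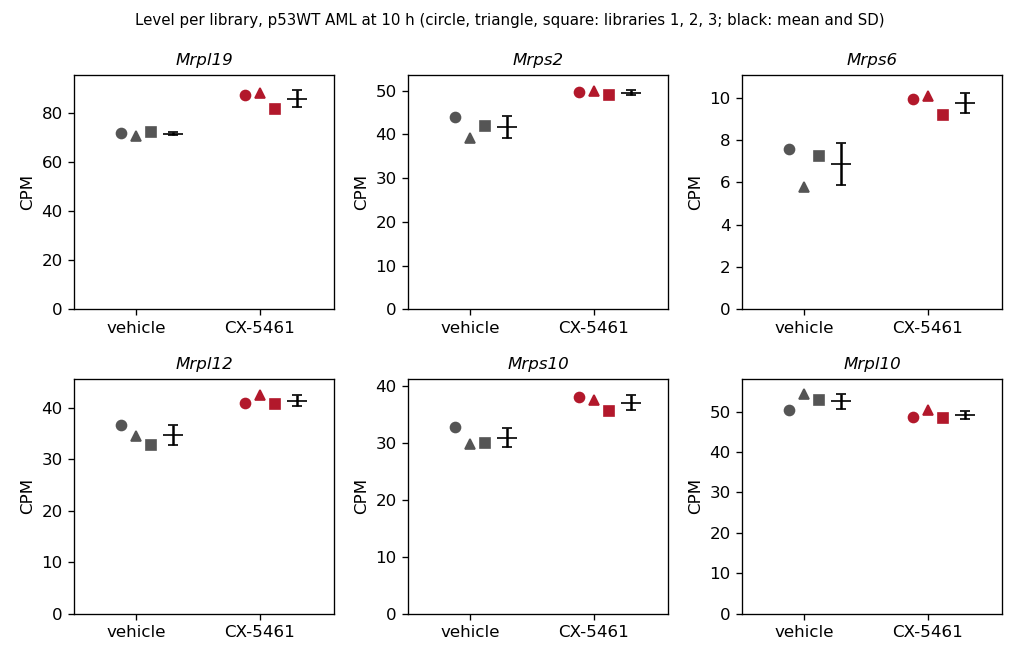
Level of 6 members in each library of p53WT AML at 10 h (y axis, CPM from 0; x axis, treatment; marker shapes are libraries, black bars the mean and SD of 3). In Mrpl19, Mrps2, Mrps6, Mrpl12 and Mrps10 every CX-5461 library lies above every vehicle library, and in Mrpl10 every one lies below.

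In all, every CX-5461 library exceeded every vehicle library in 26 of the 76 genes, against 19.9% of all genes. Every one lay below in 2, against 19.1%. Those 2 were Mrpl10 and Mrpl1. Mrpl10 encodes uL10m, the base on which the bL12m stalk stands, and was at 50.4, 54.3 and 52.8 CPM in vehicle and at 48.8, 50.3 and 48.4 CPM with CX-5461. Its log2 fold change of -0.10 (SE 0.0515) had an adjusted p of 0.252 by the edgeR test. Mrpl1, which encodes the protein of the L1 stalk at the tRNA exit, was at 24.5, 24.1 and 24.3 CPM and at 22.9, 23.6 and 22.5 CPM (log2 fold change -0.08, adjusted p = 0.385 by the edgeR test). The base of the stalk and its mobile protein Mrpl12 thus had log2 fold changes of opposite sign, neither of which passed.

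Other members at functional sites did not pass the edgeR test either. Mrpl11, which encodes a protein of the factor-binding centre, had a log2 fold change of 0.10 (SE 0.0533), and Mrps12, which encodes uS12m of the decoding site, had 0.11 (SE 0.0738). Mrpl3, whose protein reaches toward the peptidyl transferase centre, had 0.14 (SE 0.0506, adjusted p = 0.110 by the edgeR test). Mammals have 3 genes derived from that of bacterial S18, and their proteins occupy different places in the ribosome. The log2 fold change was 0.33 (SE 0.0911) for Mrps18b, -0.01 (SE 0.0717) for Mrps18a and -0.12 (SE 0.110) for Mrps18c. Mrps18c was at 40.2, 47.3 and 34.8 CPM in vehicle and at 37.0, 39.5 and 36.4 CPM with CX-5461, with overlapping groups.

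Members found only in mitochondrial ribosomes included several with roles of their own. Mrpl45, whose protein tethers the exit of the nascent chain to the inner membrane, had a log2 fold change of 0.03 (SE 0.0526), and Mrpl44, with an RNase III-like domain, had 0.02 (SE 0.0708). Mrps30 had 0.07 (SE 0.0557). Mrpl58, which encodes a peptidyl-tRNA hydrolase built into the large subunit, had -0.10 (SE 0.0759), the third lowest value. By the edgeR quasi-likelihood fit, in which 8.1% of all genes passed, 0 of the 32 members with a mitochondrial name only and 2 of the 44 with a bacterial counterpart did. DESeq2 called 8 members, where it called 962 of all genes higher and 1352 lower. Of the 8, Mrpl37 and Mrps18b have a mitochondrial name only. In the edgeR fit the median log2 fold changes were 0.05 for the 32 and 0.06 for the 44. By subunit, 1 of 26 small and 1 of 49 large subunit genes passed, with medians of 0.11 and 0.05, and groups were apart with CX-5461 above vehicle in 11 and 15. The difference between the subunits was not tested.

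Besides these, the lower end held Mrpl14 at -0.13 (SE 0.103), Mrps9 at -0.10 (SE 0.0706), Mrps21 at -0.09 (SE 0.0597), Mrpl48 at -0.08 (SE 0.0581) and Mrps36 at -0.08 (SE 0.0781). Mrpl14 encodes uL14m, which assembly factors bind late in the building of the large subunit. It was at 17.1, 20.6 and 17.3 CPM in vehicle and at 15.4, 17.4 and 17.4 CPM with CX-5461. Its groups overlapped, as did those of the other 4.

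Added up, the 76 genes made up 0.279% to 0.307% of the unscaled counts of each library. After TMM scaling the sum was 2916, 2941 and 2776 CPM in vehicle and 2999.6, 3039 and 2988 CPM with CX-5461. The 2 groups of libraries did not overlap, and the means of 2877.8 ± 88.7 and 3009.0 ± 26.8 CPM (SD, n = 3) differed by 131.2 CPM or 4.56%. The difference was 80.5 CPM without vehicle library 3 and 214.7 CPM with scaling by library size alone. With TMM scaling vehicle library 3 was the lowest, with 15 of the 76 genes above their vehicle mean, where the other 5 libraries had 49 to 57. By library size alone vehicle library 2 was the lowest, at 2793.3 CPM against 2808.42 CPM in vehicle library 3. Within the vehicle group the TMM-scaled sum spanned 2776 to 2941 CPM, a wider range than the distance from its upper end to the CX-5461 libraries.

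The markers of erythroid cells and neutrophils differed between the same libraries far more than the members did. Of the measured erythroid markers, 13 of 19 were lower with CX-5461 by the edgeR test, with a median log2 fold change of -5.57, and of the neutrophil markers 12 of 17 were, with a median of -1.93. With the mean erythroid level as a covariate in the edgeR fit, the median log2 fold change of the members was 0.14 and 70 of 76 were above 0. In that fit 0 members passed, 12 genes were called in all, and the median of all genes was 0.0095. The covariate (mean log2 CPM) was 3.30 to 7.81 in vehicle and 1.19 to 1.845 with CX-5461. With no overlap between the arms, the fit can hardly separate it from treatment. Among the vehicle libraries, library 2 had the highest erythroid sum (20344 CPM). It had the highest member sum of the group with TMM scaling (2941 CPM) and the lowest by library size alone (2793.3 CPM).

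**Figure D3:**
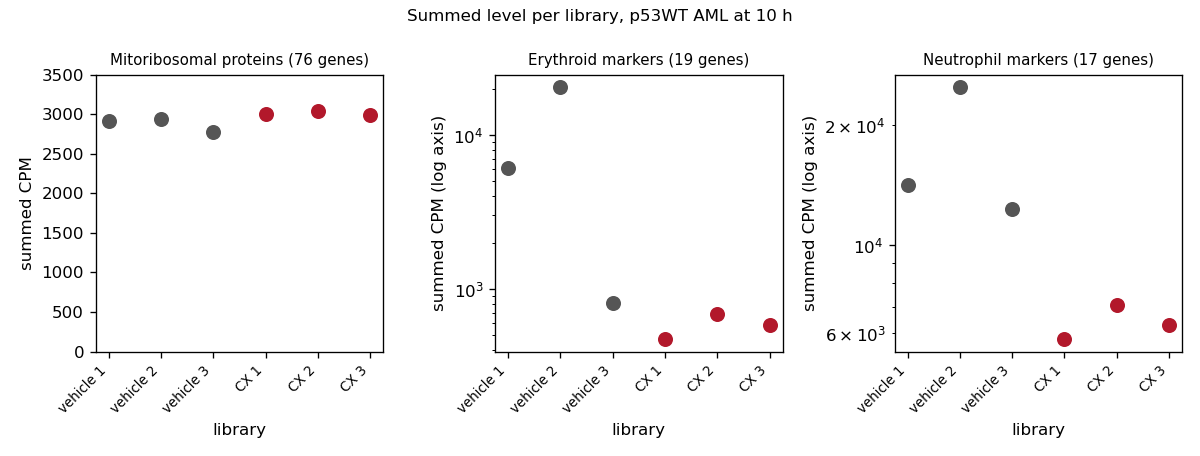
Summed level per library (x axis) in p53WT AML at 10 h: the 76 members on a linear axis from 0, and erythroid and neutrophil markers on log axes, all in CPM. Members sum to 2776 to 2941 CPM in vehicle (grey) and 2988 to 3039 CPM with CX-5461 (red), while erythroid markers span 474 to 20344 CPM and all 3 CX-5461 libraries are lowest in both marker panels.

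Per kilobase of annotated exon, the mitochondrial ribosomal protein genes were expressed at a middle level. Their median in vehicle was 24.2 CPM per kilobase (4.47 to 78.4), against 11 for all genes with a length, 91.9 for 75 nuclear genes of the respiratory chain and 409 for 80 cytosolic ribosomal protein genes. Mrps21 (78.4), Mrpl42 (77.7) and Mrpl30 (59.5) were the highest, and Mrps25 (4.47), Mrpl47 (5.11) and Mrps34 (5.27) the lowest. The median was 16.6 for small and 26.3 for large subunit genes. Proteins of the ribosome are present in single copies except for the stalk protein encoded by Mrpl12, which stood at 26.3 CPM per kilobase, while Mrpl10 for its anchor stood at 30.8. All annotated exons of a gene enter its length, so genes with long alternative ends come out lower.

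The second comparison asked what the same 10 h of CX-5461 did in AML without p53. There the authors' deposited table called 0 of the 76 genes higher and 0 lower at an FDR of 0.05, in a comparison where 0.187% of all 12861 genes were called (0.148% higher, 0.0389% lower). Without adjustment, edgeR in the authors' deposited table had 1 member at a p under 0.05 in each direction, Mrpl45 (log2 fold change 0.18, p = 0.0151) and Mrps18b (-0.19, p = 0.0355), where 3.15% of all genes were higher and 2.92% lower. The median over the 76 was 0.02, with 43 values above 0 and a range from -0.19 (Mrps18b) to 0.20 (Mrps36). All 76 lay within 1.2-fold of vehicle and 93.4% within 1.1-fold, where 93.7% and 78.8% of all genes did. The authors' deposited table gave log2 fold changes of -0.03 for Mrpl19, -0.01 for Mrps2, -0.03 for Mrps6, -0.04 for Mrpl12 and -0.07 for Mrps10. These were the members with the lowest p by the edgeR fit in p53WT AML. Of others that were high there, Mrpl37 had 0.06, Mrps5, Mrpl38 and Mrps27 each had 0.02, and Mrps18b had -0.19. Cdkn1a had -0.03 there. Of the cell type markers, the authors' deposited table called 0 of 8 measured erythroid and 0 of 17 neutrophil markers, with medians of -0.10 and -0.02. By the edgeR fit in p53WT AML the medians were -5.57 over 19 erythroid markers and -1.93 over 17 neutrophil markers. The part of these markers in the values of the members was not tested. The table for p53null AML holds no counts, so values per library, errors and a test of the difference between the genotypes cannot be given.

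The third comparison was that of CX-5461 and vehicle for 72 h in p53WT AML. The labels do not show that both times used the same leukemia. The authors' deposited table for 72 h called 6 members lower and 1 higher at an FDR of 0.05. These 7 of 76 stand beside 31.2% of all 12838 genes that were called (16.1% higher, 15.1% lower). The median log2 fold change of the 76 was -0.04, with 52 values below 0 and 24 above. Within 1.1-fold lay 80.3% of the members and 42.3% of all genes. By subunit the authors' deposited table called 1 of 26 small subunit genes lower, and 5 of 49 large subunit genes lower and 1 higher.

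Mrpl19 fell most in the authors' deposited table for 72 h, with a log2 fold change of -0.50 (FDR 7.00e-09, mean level 72.0 CPM). It was the only member called at both times, upward at 10 h by the edgeR quasi-likelihood fit and downward at 72 h in the authors' deposited table. These calls rest on different tests, and the authors' deposited table for 10 h in p53WT AML gave it an FDR of 0.199. Mrpl19 is also among the members with an uncertain count. For Gcfc2, which overlaps it, the authors' deposited table for 72 h gave -0.06 (FDR 0.753). Mrps35, a small subunit gene, fell by 0.32 on the log2 scale (FDR 0.00693 in the authors' deposited table). The other 4 that fell were large subunit genes. In the authors' deposited table, Mrpl57 had -0.30 (FDR 0.00214), Mrpl36, for a very small protein (bL36m), -0.29 (FDR 0.00717), Mrpl23 -0.26 (FDR 0.0204) and Mrpl24 -0.22 (FDR 0.0379). Mrpl23 and Mrpl24 encode uL23m and uL24m, which line the exit of the peptide tunnel. At 10 h their edgeR log2 fold changes were 0.16 and 0.06. Rrnad1 exons cover 38.2% of the exon bases of Mrpl24.

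Mrpl20, which encodes bL20m, in bacteria a protein that binds early in large subunit assembly, was the gene that rose, by 0.21 on the log2 scale (FDR 0.0446 in the authors' deposited table). At 10 h it was at 41.7, 50.2 and 41.4 CPM in vehicle and at 47.7, 48.8 and 44.7 CPM with CX-5461, with overlapping groups. Mrps6 had the largest value at 72 h too, 0.24, with an FDR of 0.113 in the authors' deposited table, and Mrpl32, whose protein is trimmed by the m-AAA protease before it is assembled, had 0.15 (FDR 0.267). For Mrps2 the authors' deposited table gave -0.07 (FDR 0.638), for Mrpl12 0.04 (FDR 0.804) and for Mrpl44 -0.18 (FDR 0.0962). Markers of cell types moved at 72 h as well. The authors' deposited table called 13 of 19 erythroid markers higher, with a median log2 fold change of 1.35, and 15 of 17 neutrophil markers. Of the 10 leukemia cell markers it called 6 lower and 1 higher, with a median of -0.28. The part of these markers in the values of the members was not tested.

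**Figure D4:**
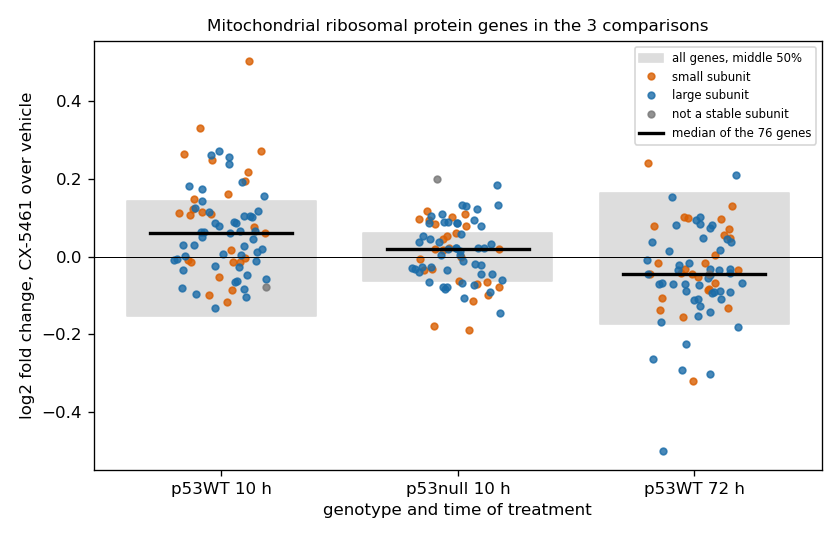
Log2 fold changes of the 76 genes (y axis, CX-5461 over vehicle) in the 3 comparisons (x axis), from the edgeR fit for p53WT 10 h and from the authors' deposited tables for the other 2, with black lines at the medians of 0.06, 0.02 and -0.04. Grey bands hold the middle 50% of all genes, and most members lie inside them in the p53WT comparisons.

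Set side by side, the 2 times in p53WT AML ranked the members differently. Across the 76 genes the log2 fold changes at 10 h and 72 h had a Pearson r of 0.13 and a Spearman rho of 0.14, a description across genes that are not independent replicates. Of the 51 genes above 0 at 10 h, 33 were below 0 at 72 h and 18 were above. Between p53WT and p53null AML at 10 h the r over the 76 was -0.07. Over all genes measured in both tables, the r was -0.34 between the times and -0.05 between the genotypes. The comparisons have vehicle groups of their own and were normalized separately.

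**Figure D5:**
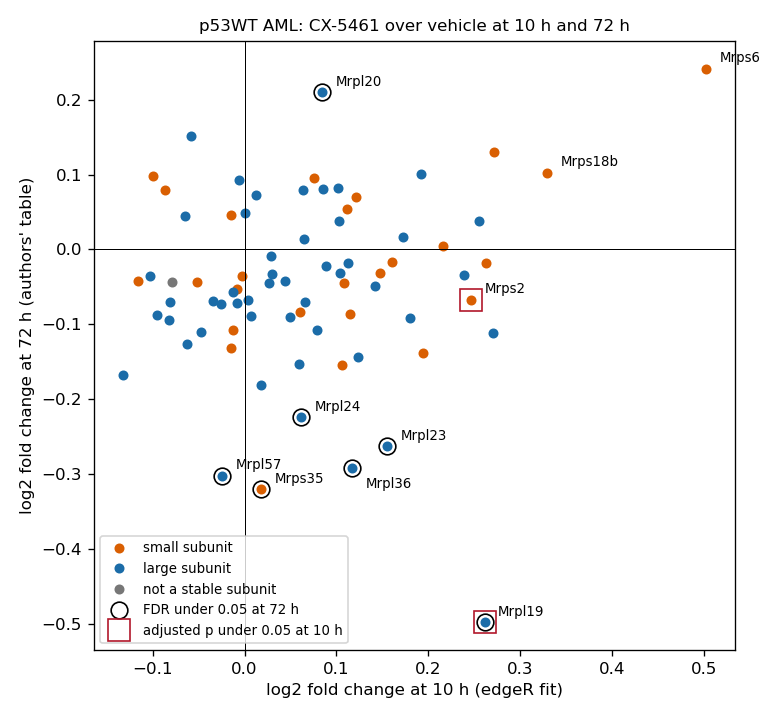
Log2 fold change of each member at 10 h (x axis, edgeR fit) against 72 h (y axis, authors' deposited table) in p53WT AML, coloured by subunit. Mrpl19 lies alone at 0.26 and -0.50, Mrps6 is highest on both axes, and 33 genes sit to the lower right.

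The rest of the mitochondrial translation system was read from lists of genes with known roles. Their counts stand beside 3.78% of all genes higher and 4.32% lower at 10 h by the edgeR fit, and 16.1% higher and 15.1% lower at 72 h in the authors' deposited table. Of 6 mitochondrial ribosomal proteins with other names, Ptcd3, a pentatricopeptide repeat protein of the small subunit also called mS39, rose at 10 h from 54.0, 55.1 and 57.3 CPM to 68.5, 67.5 and 62.0 CPM (log2 fold change 0.25, SE 0.0572, adjusted p = 0.0454 by edgeR's quasi-likelihood F test (Benjamini-Hochberg)). Its groups did not overlap. Aurkaip1 had -0.20 (adjusted p = 0.0922) and Chchd1 0.11 (adjusted p = 0.307 by the edgeR test). At 72 h the authors' deposited table called 0 of the 6.

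Among 22 assembly factors 2 rose and 0 fell at 10 h, with a median log2 fold change of 0.02. Mrm3, a methyltransferase of the large mitochondrial ribosomal RNA, was at 10.1, 8.86 and 8.64 CPM in vehicle and at 12.9, 12.7 and 12.3 CPM with CX-5461 (0.45, adjusted p = 0.0408 by the edgeR test). Fastkd2, an RNA-binding protein needed for the same RNA, had 0.30 (adjusted p = 0.0480), and the helicase Dhx30 had 0.27 (adjusted p = 0.0878 by the edgeR test). At 72 h the authors' deposited table called 5 of the 22 lower and 0 higher, with a median of -0.12. They were Ngrn (-0.44), Gtpbp10 (-0.43), Mtg1 (-0.35), Tfb1m (-0.32) and Mrm1 (-0.26), named after their values were seen.

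Of 17 mitochondrial aminoacyl-tRNA synthetases, which charge the tRNAs used by this ribosome, 3 rose and 0 fell at 10 h, with a median of 0.19. Yars2 went from 25.9, 23.6 and 23.9 CPM to 32.2, 30.4 and 31.5 CPM (log2 fold change 0.36, adjusted p = 0.0348 by the edgeR test). Mars2 and Vars2 had 0.37 and 0.23 (adjusted p = 0.0386 and 0.0438 by the edgeR test). All 3 had CX-5461 libraries above vehicle libraries. At 72 h the authors' deposited table called 5 of 17 lower and 0 higher, with a median of -0.20 and 16 values below 0. The 29.4% called stand beside 31.2% of all genes called at 72 h. Examples were Lars2 (-1.32), Pars2 (-0.67) and Fars2 (-0.35), named after their values were seen, and none of the 5 was among the 3 that rose at 10 h.

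Among 13 translation factors and activators, C1qbp, a matrix protein needed for mitochondrial translation, rose at 10 h from 142, 125 and 125 CPM to 167, 170 and 161 CPM (0.35, adjusted p = 0.0344 by the edgeR test), and 0 fell. Guf1 and Gfm1, both GTPases of elongation, had 0.21 and 0.15 (adjusted p = 0.108 and 0.122). At 72 h the authors' deposited table called 3 lower, Mtif2, Guf1 and Mrrf, and 1 higher, Mtrf1l. Of 12 genes of mitochondrial DNA maintenance and transcription, Tfb2m, the initiation factor of the mitochondrial polymerase, rose at 10 h (0.29, adjusted p = 0.0461 by the edgeR test), while Twnk had 0.44 (adjusted p = 0.0517) and Lrpprc 0.24 (adjusted p = 0.0763). Exons of Twnk and of the member Mrpl43 overlap, over 27.5% of the exon bases of Mrpl43, which had -0.06. In p53null AML the authors' deposited table called 0 genes of any of these 5 lists.

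The products of this ribosome and the ribosome of the cytosol give the surrounding values. Of 15 genes of mitochondrial DNA, the edgeR quasi-likelihood fit called 0 at 10 h in p53WT AML (median -0.09). The authors' deposited table called 1 lower there, mt-Rnr2 (log2 fold change -0.73, FDR 0.0492), where 6.83% of all genes were lower. At 72 h the authors' deposited table called 12 lower and 0 higher, with a median of -0.59, among them mt-Co2 at -0.69 and mt-Nd5 at -0.84. The mitochondrial ribosomal RNAs mt-Rnr1 and mt-Rnr2 had 0.03 and 0.27 there (FDR 0.877 and 0.348 in the authors' deposited table). In p53null AML at 10 h the authors' deposited table called 1 of the 15 higher and 0 lower, where 0.148% of all genes were higher. All 15 values were above 0 there, with a median of 0.09. Nuclear genes of the respiratory chain had a median of -0.06 at 10 h in p53WT AML, with 0 of 75 called. Cytosolic ribosomal protein genes had a median of 0.07, close to the 0.06 of the members, with 1 of 80 higher. Genes of ribosome biogenesis in the nucleolus had a median of 0.39, and 26 of 42 rose. These 10 h counts of the edgeR fit stand beside 3.78% of all genes higher and 4.32% lower. At 72 h the authors' deposited table called 13 of the 80 cytosolic ribosomal protein genes lower and 1 higher, with a median of -0.12. The 72 h counts of this paragraph stand beside 15.1% of all genes lower and 16.1% higher. The differences between these lists were not tested.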

How the data were processed

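The measurements are gene-level RNA-seq values from sorted leukemia cells. The tools named in the submitters' processing notes are CASAVA 1.8.2, Bowtie, HTSeq and edgeR, with genome build mm9, and the sources used here name no gene annotation. Per the file headers, each of the 3 deposited tables holds the authors' edgeR results: log2 fold change, log2 mean CPM, p-value and FDR. Positive log2 fold changes mean higher with CX-5461, which was checked on the counts of the 10 h p53WT table and assumed for the others. At 72 h in p53WT AML Cdkn1a had 1.70 in the authors' deposited table, the same sign as at 10 h. The 10 h p53WT table also holds the deposited raw counts of 6 libraries. Their columns name the arm and a number that is not the one in the sample titles, so each was assigned to its group only. The other 2 tables hold no counts, so the planned fits were replaced by the authors' FDR.

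Counts of all 12679 genes were scaled by TMM and tested, two-sided, in edgeR 4.0.16 with its quasi-likelihood F test (R 4.3.3; prior count 2 for log values, 4 residual degrees of freedom; Benjamini-Hochberg adjustment over all genes; threshold 0.05). The script was tested on simulated data. No 2 libraries were duplicates. A planned test of the summed CPM is not given, since it would be a p for a score over the members. Exon lengths and overlaps came from GENCODE M21 on GRCm38, without coordinates. The members, classes and lists were chosen with earlier results of these data known. The rule for named genes took the 8 largest, 8 smallest and 8 lowest-p members at 10 h in p53WT AML, the 5 largest and 5 smallest in each other table, 12 members of known role and the 3 lowest-p genes of each pathway list. Others are named after their values were seen. Alternatives were other scalings, filters, tests (limma 3.58.1, DESeq2 1.42.0), an erythroid covariate, a replicate block and leaving out each library.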

Additional observations from a re-analysis of the deposited data

How the results depend on the processing

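At 10 h in p53WT AML, the 2 members called higher became 1 with RLE scaling and 4 when only genes averaging 5 CPM or more were tested. They became 1 with limma-voom, 8 with DESeq2 and 0 with the erythroid covariate. Over all genes, 479 were higher in the main fit, and 466, 515 of 10381, 394, 962 and 12 in these fits. Restricted to members without annotated exon overlap, a choice made after seeing the data, the count was 1. Leaving out 1 library at a time gave 0 to 6. Without vehicle library 1 there were 6, without vehicle library 2 there were 2 and without vehicle library 3 there was 1. Without any 1 CX-5461 library there were 0. Over all genes, these fits called 817, 570, 474 and 23 to 24 higher. With a replicate block from the column numbers 1 member was higher, and 679 genes rose and 857 fell. Same-numbered libraries deviated together at r = 0.301, 0.107 and 0.0274, and differently numbered ones at -0.2025 to 0.0933. These values do not settle whether the libraries were paired. The labels do not tie the numbers to pairs, so they were not taken as such. The members' median of 0.06 became 0.14 with the erythroid covariate, whose values did not overlap between the arms. In the authors' deposited table for 72 h, 0 members were higher at an FDR of 0.01, and 3 were lower among those without exon overlap.

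Of the values of single named members under all alternatives, 514 kept direction and side of the threshold, 15 became and 14 ceased to be significant, and 26 changed sign. With the erythroid covariate the log2 fold change was 0.0942 for Mrpl14, 0.0517 for Mrpl32, 0.055 for Mrpl48, 0.0509 for Mrpl54, 0.17 for Mrpl57, 0.0561 for Mrpl58, 0.11 for Mrps18a, 0.29 for Mrps18c, 0.21 for Mrps34 and 0.11 for Mrps9. With library size alone it was 0.0148 for Mrpl54, 0.0178 for Mrpl57, 0.0287 for Mrps18a and 0.0304 for Mrps34, and 62 of 76 members were above 0, with a median of all genes of 0.04. Mrps34 had 0.0049 with limma-voom. Leaving out 1 library at a time, the range was -0.0209 to 0.0965 for Mrpl44, -0.0657 to 0.0202 for Mrpl54, -0.0815 to 0.0151 for Mrpl57, -0.0632 to 0.0141 for Mrps18a, -0.0876 to 0.0724 for Mrps34 and -0.0152 to 0.0428 for Mrps35. The causes were not tested. Depth per library limits p53WT AML at 10 h little, since 75 of 76 members averaged at least 5 CPM in vehicle, while the other 2 tables give no depth.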

Other observations

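The genes next to the members were read as well. Of the 76 members, 18 had a protein-coding neighbour starting within 1000 bp head to head with it in GENCODE M21, and 17 of these neighbours were measured in p53WT AML at 10 h. None was higher and 1 was lower by edgeR's quasi-likelihood F test (Benjamini-Hochberg), beside 3.78% and 4.32% of all genes. The lower one was Klc4, a kinesin light chain gene and neighbour of Mrpl2. It was at 41.3, 39.1 and 38.4 CPM in vehicle and at 31.3, 30.8 and 30.6 CPM with CX-5461, with no overlap (log2 fold change -0.36, SE 0.0554, adjusted p = 0.0281 by the edgeR test). Mrpl2 itself was at 49.1, 49.1 and 42.2 CPM and at 45.7, 46.1 and 49.5 CPM, with a log2 fold change of 0.01. Members and neighbours had the same sign in 9 of the 17 measured pairs.

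The 4 pseudogenes with matching names in the same table had log2 fold changes of 0.03 (Mrps36-ps1), 0.08 (Mrpl23-ps1), 0.24 (Mrpl48-ps) and 0.27 (Mrps36-ps2), with standard errors of 0.145, 0.0858, 0.241 and 0.239, and 0 of them passed the edgeR test. Their counts could be shared with the parent genes. Mrpl23-ps1 averaged 9.88 CPM in vehicle, where its parent Mrpl23 averaged 34.8 CPM.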
